A study of Homo sapiens with 6 samples.

Results

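V(D)J recombination is the process by which developing lymphocytes cut and rejoin the gene segments of their antigen receptors, and 10 genes of its core machinery were followed here in NALM6 cells treated with THZ1. The list was set by name, with no threshold on a measured value but with earlier results of these data known, and holds RAG1, RAG2, DNTT, PRKDC, XRCC5, XRCC6, DCLRE1C, XRCC4, LIG4 and NHEJ1. All 10 were found among the 57905 genes of the count table and all 10 were among the 16622 genes that passed the filter on low counts. NALM6 is an established human line of B cell precursor leukemia, so the cells belong to the lineage and stage in which the immunoglobulin genes are normally rearranged. THZ1 binds covalently to CDK7, a kinase that acts in the cell cycle and on RNA polymerase II during transcription. RNA-SEQ was done on 3 libraries of cells given the solvent DMSO and 3 of cells given 500 nM of THZ1, each for 24 h and both arms from the same parental line with no other alteration named. NALM6 is a single line, and the labels do not say whether replicates came from separate cultures, so the p-values measure the spread between these libraries, which may be technical.

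The recombinase is made of the RAG1 and RAG2 proteins, which bind the recombination signal sequences beside each gene segment and cut the DNA there, with HMGB1 or HMGB2 bending the DNA. The cut leaves hairpin-sealed coding ends, which are joined by classical non-homologous end joining. Ku, the dimer of the XRCC5 (Ku80) and XRCC6 (Ku70) proteins, holds the ends and recruits the kinase DNA-PKcs, the product of PRKDC. DNA-PKcs activates the nuclease Artemis, the product of DCLRE1C, which opens the hairpins. DNTT encodes terminal deoxynucleotidyl transferase, which adds nucleotides without a template at the junctions. The ligase LIG4, held in a complex with XRCC4 and helped by XLF, the product of NHEJ1, seals the break. RAG1, RAG2 and DNTT are normally restricted to lymphocyte precursors, whereas the end joining genes serve all cells that repair double-strand breaks.

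The DNA just upstream of the transcription starts is poorer in CpG for RAG2 and DNTT than for the end joining genes, and 3 stretches are shown because they display this contrast. The windows of 250 bases before the start of the canonical transcript were read from GRCh37 with the GENCODE 44 annotation, for the members other than RAG1 and PRKDC. In the DNTT window 3 CpG dinucleotides were found and in that of RAG2 0. The other 6 windows held between 14 (NHEJ1) and 29 (XRCC5), against a median of 18 over 20098 windows of protein-coding genes. The share of G and C was 34% for RAG2 and 46.4% for DNTT, and 63.6% to 68.8% for the other 6 (median of all windows 63.2%). The letters CANNTG, the E-box, which read the same on both strands, were present in 56.8% of all windows, GGGAA on either strand in 60.5% and TATAAA on either strand in 9.42%. DNTT had 2 matches to CANNTG and RAG2 1, and TATAAA was in none of these windows. In the sequences below the CANNTG matches are in capitals. The last 43 bases of the RAG2 window and the last 25 of the DNTT window lie in exons of other annotated transcripts and are left out, and with them the match in RAG2. The RAG2 stretch is chr11:36619830-36620036 on the minus strand and the DNTT stretch is chr10:98063941-98064165 on the plus strand. The other stretch is the whole interval of 119 bases between the gene records of DESI1 and XRCC6, which are transcribed away from each other. It lies at chr22:42017048-42017166 and is written on the XRCC6 strand.
RAG2 upstream: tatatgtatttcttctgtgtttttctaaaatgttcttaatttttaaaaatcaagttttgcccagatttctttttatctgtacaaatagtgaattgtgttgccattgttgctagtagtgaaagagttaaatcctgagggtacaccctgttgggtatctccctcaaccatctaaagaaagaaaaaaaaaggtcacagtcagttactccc
DNTT upstream: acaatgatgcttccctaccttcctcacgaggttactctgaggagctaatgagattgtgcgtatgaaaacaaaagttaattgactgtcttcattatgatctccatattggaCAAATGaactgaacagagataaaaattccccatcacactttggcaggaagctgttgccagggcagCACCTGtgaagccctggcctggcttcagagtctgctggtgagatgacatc
DESI1 to XRCC6 interval: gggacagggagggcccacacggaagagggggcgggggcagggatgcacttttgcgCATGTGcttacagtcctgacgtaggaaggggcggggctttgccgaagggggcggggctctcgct
The DESI1 to XRCC6 interval held 8 CpG dinucleotides, a G and C share of 68.1% and 1 match to CANNTG. These matches describe the letters only.

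The DMSO libraries held 11015480 to 11164840 counts on genes and the THZ1 libraries 7876402 to 8314306, and 3 counts, the floor that counting error sets for a gene with none, correspond to 0.246 to 0.253 and 0.394 to 0.415 CPM (counts relative to the library size). Values below are CPM scaled by TMM unless stated otherwise, with the SD over 3 libraries. CPM are relative to the other counts of a library, so the amount of RNA per cell is not known from them. Higher, lower and not called refer to this relative level. B-lineage identity was checked on 9 markers, whose summed level was 2548 to 2835 CPM with DMSO and 1268 to 1309 CPM with THZ1. By the edgeR test described below 6 of these markers were lower and 2 higher, while 41.1% and 43.5% of all genes tested were. Markers of T cells summed to at most 1.52 CPM in any library with CD8A at 0 and those of NK cells to at most 14.0 CPM with NCAM1 and KLRD1 at 0. Myeloid markers summed to 3.88 to 4.63 CPM with DMSO and 18.5 to 20.1 CPM with THZ1, and of the 4 tested 2 were higher and 1 lower. The part of these marker shifts in the results was not tested, and in bulk RNA fewer cells expressing a gene and less of its RNA per cell cannot be told apart.

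The relative RNA level of most members differed with THZ1 treatment, and the changes ran from a 17.3-fold fall of XRCC4 to a rise of NHEJ1. By edgeR's quasi-likelihood test, with p-values adjusted by Benjamini-Hochberg over all genes tested, 7 of the 10 members were lower with THZ1, 2 were higher and LIG4 was not called. The same test called 41.1% of all genes lower and 43.5% higher, so calls in either direction were the rule across the transcriptome (84.5%). Among protein-coding genes 47.6% were lower and 36.3% higher. With a fall of at least 1 on the log2 scale asked for as well, 4 members were called lower, against 22.6% of all genes, and with at least 1.5 they were 3, against 12.9%. NHEJ1 was the 1 member higher by at least 1.5, against 24.6% of all genes. The median log2 fold change of the 10 members was −0.83, against 0.03 over all genes tested. For 8 members the DMSO and THZ1 libraries did not overlap, while 84.7% of all genes tested had no overlap either, and RAG1 and LIG4 were the members that overlapped.

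**Figure D1:**
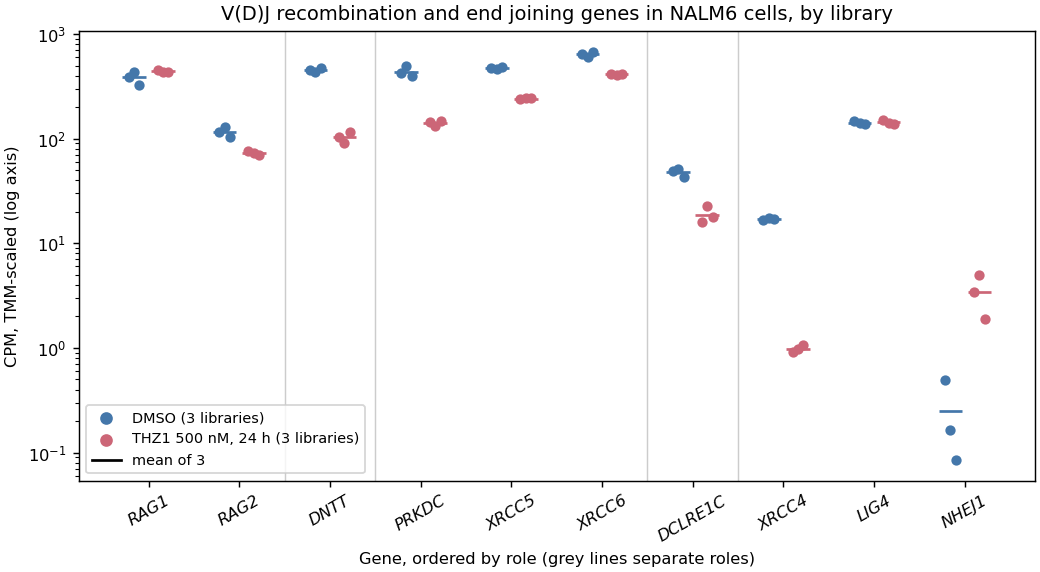
TMM-scaled CPM of each member (log axis) in the 3 DMSO libraries and the 3 THZ1 libraries, with the mean of 3 as a bar and grey lines between the recombinase, DNTT, the DNA-PK genes, the nuclease and the ligation genes. XRCC4 fell from a mean of 17.1 to 0.986 CPM while LIG4, drawn beside it, had 141 and 144 CPM.

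The partners that form the recombinase did not move alike. RAG1 (chromosome 11, 36531922 to 36614706, plus strand), whose protein carries the catalytic site, had 388, 436 and 329 CPM in DMSO libraries 1, 2 and 3 and 450.3, 436 and 430.3 CPM in THZ1 libraries 1, 2 and 3. The DMSO libraries spread more widely than the THZ1 libraries, and the highest DMSO library lay within the THZ1 range. The means were 384 ± 53.5 and 439 ± 10.2 CPM, and the log2 fold change was 0.19 (SE 0.08, 95% interval 0.03 to 0.35, edgeR adjusted p = 0.0223). This call was lost when DMSO library 1 (0.18, edgeR adjusted p = 0.0795), DMSO library 3 (0.07, adjusted p = 0.255) or any 1 THZ1 library (0.17 to 0.20, adjusted p = 0.0620 to 0.0858) was left out, and the sign turned with library sizes alone (−0.06, adjusted p = 0.492) and in the deposited FPKM values (−0.01, limma adjusted p = 0.965). DMSO library 2 exceeded DMSO library 3 by 0.41 on the log2 CPM scale for RAG1, and across 11929 protein-coding genes the difference between these libraries went with transcript length (Spearman rho 0.532, a description over genes that share the same libraries).

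RAG2 (chromosome 11, 36597124 to 36619829, minus strand), the partner that reads the histone mark of active promoters and raises the activity of RAG1, was lower with THZ1. Its levels were 116, 129 and 104 CPM with DMSO and 75.6, 73.6 and 69.7 CPM with THZ1, so every THZ1 library lay under every DMSO library. The means were 116 ± 12.4 and 73.0 ± 3.04 CPM, and the log2 fold change was −0.67 (SE 0.08, edgeR adjusted p = 7.6e-09). The records of the 2 genes run toward each other on opposite strands and overlap, and their exons share 588 bp in the annotation used. Exons of IFTAP, which was chosen after its values were seen, share 372 bp with RAG2 on the opposite strand and had 70 to 108 counts with DMSO and 12 to 16 with THZ1, with RAG2 at 1231 to 1570 and 521 to 575 counts. The strand setting of the counting is not given in the sources used here, so reads from these shared stretches cannot be told apart. Within each library the ratio of RAG1 to RAG2 CPM was 3.33, 3.39 and 3.17 with DMSO and 5.95, 5.92 and 6.18 with THZ1. The mean log2 ratio rose by 0.87 with no overlap, and 3 libraries against 3 cannot go below the p of 0.1 that the exact permutation test gave (two-sided, 0.125 after Benjamini-Hochberg over 5 pairs).

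DNTT (chromosome 10, 98064166 to 98098321, plus strand) had the strongest fall among the lymphoid-restricted members. Its levels were 458, 429 and 476 CPM with DMSO and 104, 91.2 and 115 CPM with THZ1, which left 22.7% of the DMSO mean. The THZ1 libraries all lay far under the DMSO libraries. The log2 fold change was −2.14 (SE 0.08, edgeR adjusted p = 1.4e-21), with means of 455 ± 23.9 and 103 ± 11.8 CPM. A lncRNA annotated within the DNTT span on the opposite strand, ENSG00000229418, shares no exonic base with it and had 37 to 51 counts with DMSO and 76 to 81 with THZ1 (log2 fold change 1.48).

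The RNAs of the DNA-PK holoenzyme all fell, by different amounts. PRKDC (chromosome 8, 48685672 to 48872738, minus strand) encodes its catalytic subunit and had 422, 498 and 394 CPM with DMSO and 145, 133 and 149 CPM with THZ1. No library overlapped, and the log2 fold change was −1.62 (SE 0.08, edgeR adjusted p = 2.4e-18). XRCC5 (chromosome 2, 216972187 to 217071026, plus strand) had 475, 467 and 489 CPM with DMSO and 238, 243 and 242 CPM with THZ1, values tight enough to give a mean of 241 ± 2.87 CPM after THZ1 treatment. Its log2 fold change was −0.98 (SE 0.07, edgeR adjusted p = 6.5e-15). XRCC6 (chromosome 22, 42017167 to 42060052, plus strand) had 650.5, 601 and 678 CPM with DMSO and 416, 408 and 417 CPM with THZ1. It fell less, with a log2 fold change of −0.64 (SE 0.07, edgeR adjusted p = 3.5e-10). Of the 5 processed pseudogenes of XRCC6 looked up, XRCC6P2 had 1 to 4 counts per library and the other 4 had 0. The Ku subunits act as a dimer, and within libraries the ratio of XRCC5 to XRCC6 CPM was 0.730, 0.777 and 0.722 with DMSO and 0.572, 0.597 and 0.580 with THZ1. The log2 ratio fell by 0.35 with no overlap (exact permutation test, two-sided p = 0.1, as low as these libraries allow).

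DCLRE1C (chromosome 10, 14939358 to 14996431, minus strand), the gene of the hairpin-opening nuclease, was expressed at a lower level than the DNA-PK genes and fell as well. It had 49.4, 50.9 and 42.7 CPM with DMSO and 15.8, 22.8 and 17.9 CPM with THZ1. The highest THZ1 library stayed under the lowest DMSO library, and the log2 fold change was −1.34 (SE 0.12, edgeR adjusted p = 4.2e-12). Exons of SUV39H2, chosen after its values were seen, share 159 bp with DCLRE1C on the opposite strand, and that gene had a log2 fold change of −1.49. Relative to PRKDC, whose product activates the nuclease, DCLRE1C had a ratio of 0.117, 0.102 and 0.108 with DMSO and 0.109, 0.172 and 0.120 with THZ1. These ratios overlapped, with a difference of 0.26 on the log2 scale (two-sided exact permutation test, p = 0.2, in a design that cannot go below 0.1). Without THZ1 library 2 the difference was 0.07, and without THZ1 library 1 it was 0.40.

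Of the genes of the ligation step, XRCC4 fell, NHEJ1 rose and LIG4 was not called. XRCC4 (chromosome 5, 82373317 to 82649606, plus strand), the scaffold that stabilizes the ligase, had 16.7, 17.6 and 17.0 CPM with DMSO and 0.920, 0.969 and 1.07 CPM with THZ1, from 202, 215 and 201 counts and 7, 7 and 8 counts. All 3 THZ1 libraries were above the floor of 3 counts and far below the DMSO libraries. The log2 fold change was −4.10 (SE 0.23, edgeR adjusted p = 7.9e-17), which placed XRCC4 at the 0.493 percentile of all genes tested. LIG4 (chromosome 13, 108859787 to 108870716, minus strand), the ligase itself, had 146, 141 and 138 CPM with DMSO and 149.9, 141 and 139 CPM with THZ1. The libraries of both treatments overlapped, and the log2 fold change was 0.02 with a 95% interval of −0.12 to 0.16 (edgeR adjusted p = 0.779). With upper quartile factors LIG4 was called higher (0.21, adjusted p = 0.00575), and with library sizes alone it was called lower (−0.23, adjusted p = 0.00381), so its direction depends on the scaling. The ratio of XRCC4 to LIG4 within a library does not depend on the scaling, and it was 0.114, 0.125 and 0.123 with DMSO and 0.00614, 0.00686 and 0.00767 with THZ1. This is a fall of the mean log2 ratio by 4.14 with no overlap (exact permutation test, two-sided p = 0.1, as low as possible here).

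NHEJ1 (chromosome 2, 219934077 to 220025591, minus strand), which encodes XLF, was barely detected and rose. It had 6, 2 and 1 counts in the DMSO libraries and 26, 36 and 14 counts in the THZ1 libraries, or 0.496, 0.164 and 0.0844 CPM against 3.42, 4.98 and 1.87 CPM. Every THZ1 library was above every DMSO library, although 2 of the 3 DMSO libraries were under the floor of 3 counts. The summed counts, 9 against 76, gave a ratio of 13.7 after scaling, with an exact 95% interval of 6.84 to 31.1 that covers counting error only. The fitted log2 fold change was 3.71 (SE 0.49, edgeR adjusted p = 3.3e-08). It was 4.62 without DMSO library 1, 3.30 without DMSO library 3, and 2.7 without DMSO libraries 2 and 3, with the call kept in each. On the FPKM scale NHEJ1 spanned 0.670 to 1.04 with DMSO and 0.732 to 2.86 with THZ1, so the ranges overlapped there and the gene was not called (limma adjusted p = 0.122). A protein-coding record on the same strand, ENSG00000280537, shares 2034 bp of exon with NHEJ1 and was not analysed here. SLC23A3, which starts upstream and ends 596 bp before NHEJ1 on the same strand, was chosen after its values were seen. It had 3.12 to 4.92 CPM with DMSO and 32.9 to 46.7 CPM with THZ1 (log2 fold change 3.35, SE 0.16, edgeR adjusted p = 2.2e-18), and its part in the NHEJ1 counts was not tested. Between these partners of the ligase complex, the log2 ratio of XRCC4 to NHEJ1 went from 5.07, 6.75 and 7.65 to −1.89, −2.36 and −0.81 (two-sided exact permutation test, p = 0.1).

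**Figure D2:**
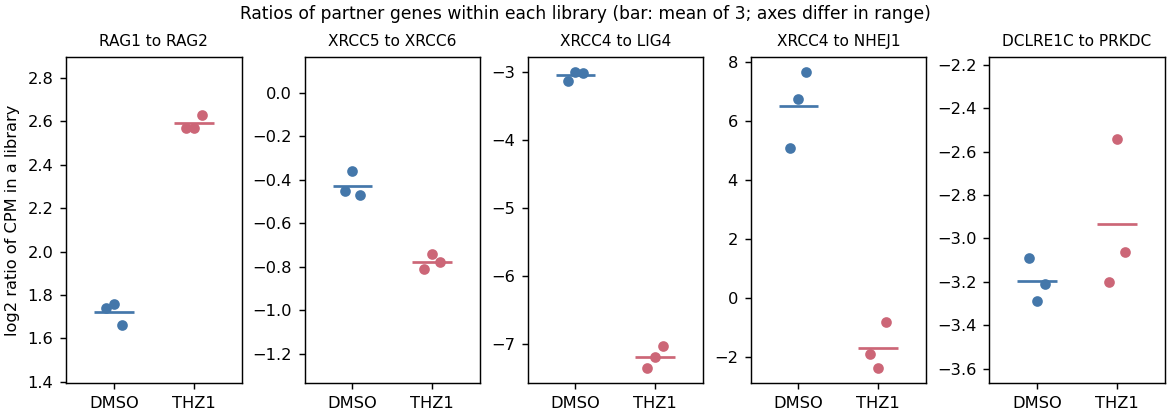
The log2 ratio of CPM of 5 partner pairs in each of the 3 DMSO and 3 THZ1 libraries, with the mean of 3 as a bar and a separate vertical range in each panel. The treatments are separate for 4 pairs, with mean differences from −8.18 (XRCC4 to NHEJ1) to 0.87 (RAG1 to RAG2), and overlap for DCLRE1C to PRKDC.

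As a whole the members took 0.283% to 0.307% of the counts of a DMSO library and 0.143% to 0.146% of a THZ1 library. RAG1 made up 12.3% to 15.7% of the member counts with DMSO and 27.2% to 28.2% with THZ1. DNTT went the other way, from 15.5% to 17.9% down to 5.86% to 7.25%. LIG4 accounted for 5.08% to 5.36% and then 8.80% to 9.37%. These shares are read counts and so depend on transcript length.

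Levels between genes were compared on the deposited FPKM scale, which corrects for length and holds 9 members (DCLRE1C was not in that table). With DMSO the order of mean FPKM levels was DNTT (683 ± 32.4), XRCC6 (568 ± 16.9), XRCC5 (258 ± 8.83), RAG1 (143 ± 28.2), RAG2 (94.7 ± 13.5), LIG4 (91.7 ± 5.19), PRKDC (81.0 ± 13), XRCC4 (18.2 ± 0.343) and NHEJ1 (0.799 ± 0.210). The ranges of RAG2, LIG4 and PRKDC overlapped, and other neighbours in this order were separated. With THZ1 the order of mean FPKM levels was XRCC6 (307 ± 5.54), RAG1 (140.1 ± 3.34), DNTT (132 ± 13.1), XRCC5 (112 ± 1.5), LIG4 (83.1 ± 3.52), RAG2 (54.0 ± 2.16), PRKDC (23.8 ± 1.67), NHEJ1 (1.80 ± 1.06) and XRCC4 (0.389 ± 0.0271). On this scale DNTT went from the head of the order to a level not separated from RAG1, and XRCC4 to the end. Computed from the counts as CPM per kilobase of exon, DCLRE1C had a level of 3.12 ± 0.286 with DMSO and 1.23 ± 0.237 with THZ1, between XRCC4 and NHEJ1 with DMSO. With the length of the canonical transcript used instead, XRCC6 (303 ± 18.5 CPM per kilobase) stood above DNTT (235 ± 12.3) with DMSO, and with THZ1 DNTT (53.4 ± 6.11) was below RAG1 (66.6 ± 1.55) and XRCC5 (71.4 ± 0.850). After THZ1 treatment NHEJ1 was last and not separated from XRCC4 on both scales of CPM per kilobase, with means of 0.328 and 0.369 per kilobase of exon. The order thus depends on the length and the scale used.

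The genes around the members were described in lists written from general knowledge. The RAG cofactors were all lower, 3 of 3, while 41.1% of all genes tested were lower. Their median log2 fold change was −1.73, against 0.03 over all genes tested. HMGB1, the DNA-bending partner of the recombinase, had 1509 to 1656 CPM with DMSO and 374 to 386 CPM with THZ1 (log2 fold change −2.05, SE 0.07, edgeR adjusted p = 1.9e-22). HMGB2, its close relative, had 828 to 966 CPM and 252 to 277 CPM (log2 fold change −1.73, edgeR adjusted p = 4.6e-20). DCAF1, a ubiquitin ligase adaptor that binds RAG1, had 108 ± 5.97 and 93.5 ± 3.55 CPM (−0.21, edgeR adjusted p = 0.0114). Its call was lost with RLE factors (−0.14, adjusted p = 0.0811) and with upper quartile factors (−0.02, adjusted p = 0.843). It was also lost with at least 10 counts in every library (−0.08, adjusted p = 0.337) and without THZ1 library 1 (−0.18, adjusted p = 0.0574).

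Among 12 transcription factors that regulate RAG or DNTT genes, 11 were tested, 9 were lower and 1 was higher. Of all genes tested 41.1% were lower and 43.5% higher. The median log2 fold change of the list was −0.54, against 0.03 over all genes tested. GFI1B, at 0 counts in all DMSO libraries, was not tested. PAX5, which maintains B cell identity, fell the most, from 480.3 to 598 CPM with DMSO down to 132 to 140.2 CPM with THZ1 (log2 fold change −1.98, SE 0.08, edgeR adjusted p = 6.6e-21). FOXO1, an activator of RAG transcription, was the gene that rose, from 73.4 to 87.3 CPM up to 147 to 169 CPM (1.01, SE 0.08, edgeR adjusted p = 3.2e-13). SATB1 was the gene not called (0.18, edgeR adjusted p = 0.268).

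The accessory end joining list held 10 genes, of which POLL, at 0.940 ± 0.114 CPM with DMSO, did not pass the filter. Of the 9 tested, 7 were lower, while 41.1% of all genes tested were lower. The median log2 fold change was −0.73, against 0.03 over all genes tested. POLM, a polymerase of the same family as DNTT, fell the most, from 108 to 109.6 CPM with DMSO to 38.0 to 40.1 CPM with THZ1 (log2 fold change −1.47, SE 0.08, edgeR adjusted p = 5.4e-17). PAXX, a relative of XRCC4 and XLF that binds Ku, had a log2 fold change of −1.23 (edgeR adjusted p = 4e-11). APTX, which processes damaged ends and binds XRCC4, had a log2 fold change of −0.95 (edgeR adjusted p = 5.7e-09). WRN, APLF, TDP1 and CYREN fell, with log2 fold changes of −0.71, −0.84, −0.73 and −0.36. The call of CYREN was lost with upper quartile factors (−0.16, adjusted p = 0.148) and that of APLF with DESeq2 (−0.83, adjusted p = 0.0589). TDP2 was not called (−0.15, edgeR adjusted p = 0.0971), and its sign turned with upper quartile factors (0.05), whereas it was called lower with library sizes alone (−0.39, adjusted p = 7.5e-05), with no filter (−0.23, adjusted p = 0.0174) and with limma on FPKM (−0.27, adjusted p = 0.00563 to 0.00583).

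In break signalling and the control of end resection, 9 of 14 genes were lower, 4 were higher and TP53BP1 was not called. Of all genes tested 41.1% were lower and 43.5% higher. The median log2 fold change of the list was −0.55, against 0.03 over all genes tested. NBN, a subunit of the MRN complex that senses breaks, fell from 78.7 ± 5.84 to 20.4 ± 1.56 CPM (log2 fold change −1.95, SE 0.10, edgeR adjusted p = 5.6e-18). H2AX, the histone variant phosphorylated at breaks, had 205 to 267 CPM with DMSO and 685 to 715 CPM with THZ1, the highest log2 fold change of the list (1.57, SE 0.08, edgeR adjusted p = 3.1e-18). The other 3 that rose were MDC1 (1.45), which binds phosphorylated H2AX, the ubiquitin ligase RNF168 (0.51) and the shieldin subunit SHLD3 (1.22).

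The alternative end joining list, the pathway that uses microhomology when the classical one is not used, had 6 of 7 genes lower and 0 higher. Of all genes tested 41.1% were lower and 43.5% higher. The median log2 fold change of the list was −1.0, against 0.03 over all genes tested. LIG3 fell from 34.7 ± 2.03 to 12.4 ± 2.21 CPM (−1.49, SE 0.13, edgeR adjusted p = 2.3e-12). POLQ (−1.10), LIG1 (−1.02), RBBP8 (−1.0), FEN1 (−0.83) and XRCC1 (−0.53) fell too. PARP1 had 926 ± 7.60 and 868 ± 28.7 CPM and was not called (−0.09, edgeR adjusted p = 0.181). It was called lower with library sizes alone (−0.34, adjusted p = 6e-06) and with no filter (−0.18, adjusted p = 0.00924). The same held with limma on FPKM (−0.37, adjusted p = 0.00229 to 0.00252). PARP1 had −0.15 without DMSO libraries 2 and 3, and 0.10 with upper quartile factors.

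**Figure D3:**
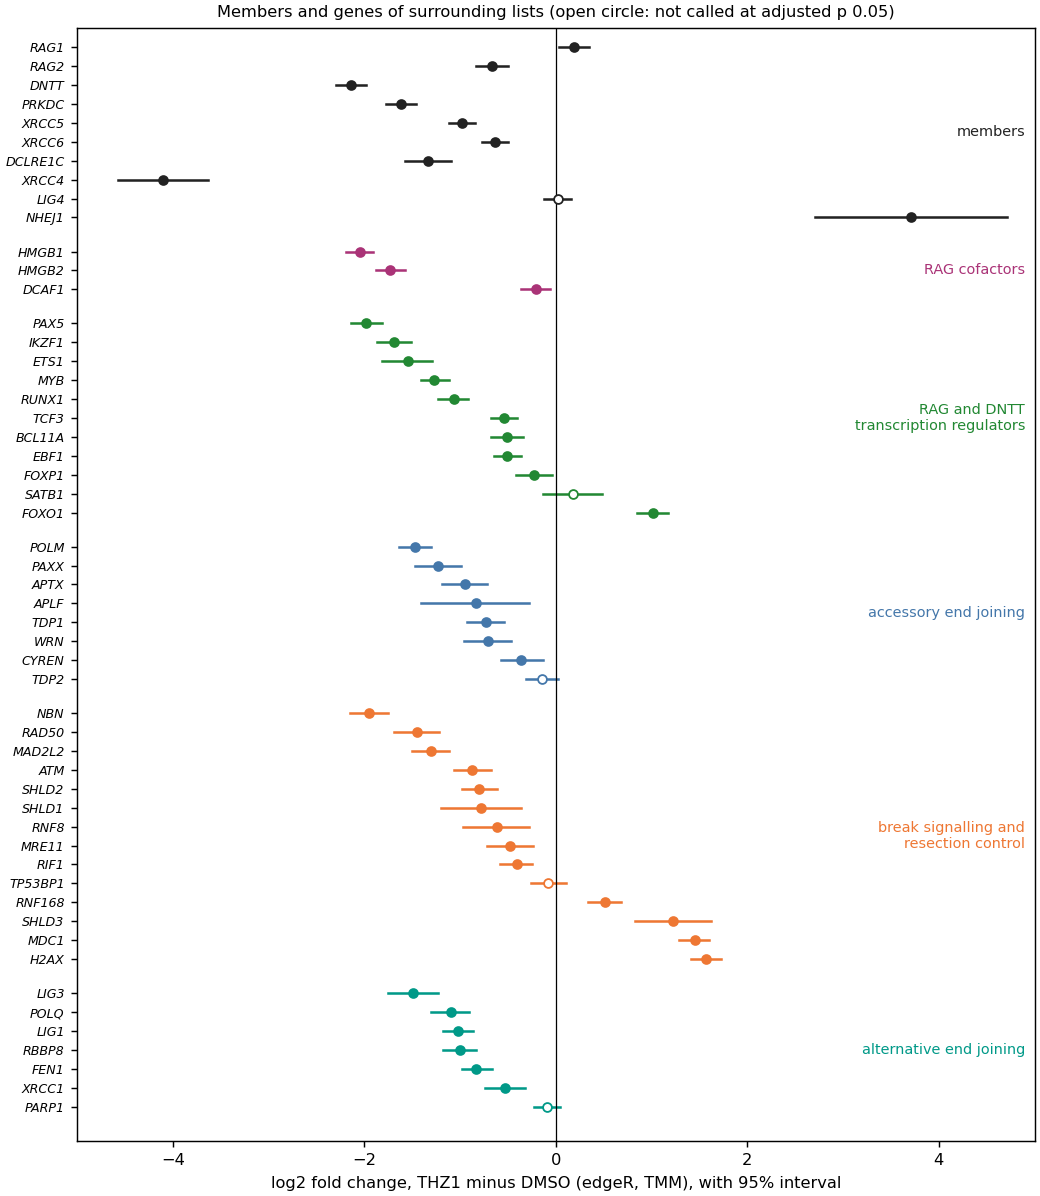
Log2 fold changes (THZ1 minus DMSO) of the 10 members and of the genes shown from 5 surrounding lists. Bars are 95% intervals derived from the edgeR fit over 3 libraries per treatment, and open circles mark genes not called. XRCC4 (−4.10) and NHEJ1 (3.71) lie at the 2 ends, while the surrounding lists run from −2.05 (HMGB1) to 1.57 (H2AX).

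Of 7 immunoglobulin constant genes, whose counts do not separate transcripts of rearranged loci from germline transcripts, 4 were tested and IGKC, IGLC1 and IGLC2 had 0 counts in every library. IGHM, the heavy chain constant gene used by precursor B cells, had 1304 to 1591 CPM with DMSO and 2433 to 2516 CPM with THZ1 (log2 fold change 0.77, SE 0.07, edgeR adjusted p = 2.6e-11), but was not called on the deposited FPKM values (0.10, limma adjusted p = 0.144). The other 3 were lower, from IGLC3 (−1.95, edgeR adjusted p = 1.1e-14) to IGHD (−0.81), while 41.1% of all genes tested were lower and 43.5% higher. The IGLC genes are closely similar copies, so reads may have been split between them or dropped.

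A gene that starts within 1 kb of a member on the other strand shares the DNA between both starts. By gene records, 5 members had such a neighbour, and each is given beside its member, with no test of the pair. The distances below are between the starts of gene records, and canonical transcripts can start elsewhere. Canonical starts are 48873501 for MCM4 and 48872696 for PRKDC, and 82373213 for TMEM167A and 82373366 for XRCC4. The canonical XRCC6 transcript starts at 42017299. The 95% intervals of the log2 fold changes overlapped for RAG1 with TRAF6 and for LIG4 with ABHD13, and were apart for the other 3 pairs. DESI1, 120 bp from XRCC6 across the interval printed above, had 44.2, 39.5 and 43.0 CPM with DMSO and 6.31, 6.64 and 6.28 CPM with THZ1. Its log2 fold change of −2.72 (SE 0.13, edgeR adjusted p = 1.2e-18) stands beside −0.64 for XRCC6. MCM4, a subunit of the replicative helicase that starts 7 bp from PRKDC, had 377 ± 16.5 and 252 ± 6.66 CPM (−0.58, SE 0.07, edgeR adjusted p = 2.0e-09), beside −1.62 for PRKDC. TMEM167A starts 365 bp from the XRCC4 start, and their gene records overlap there with 0 exonic bases shared. TMEM167A had 77.0 ± 7.81 and 58.3 ± 9.27 CPM (−0.40, SE 0.10, edgeR adjusted p = 0.000326), beside −4.10 for XRCC4. ABHD13 starts at 108870740, 24 bp from the start of the LIG4 gene record. The canonical LIG4 transcript starts farther downstream, at 108867884, which is beyond 1 kb from ABHD13. ABHD13 had a log2 fold change of −0.28 (SE 0.11, edgeR adjusted p = 0.0229). This call was lost with upper quartile factors (−0.09, adjusted p = 0.473) and without THZ1 library 1 (−0.20, adjusted p = 0.14) or THZ1 library 3 (−0.28, adjusted p = 0.0539). TRAF6 lies 100 bp from the start of the RAG1 gene record, but the canonical RAG1 transcript starts farther downstream. It was not called (−0.23, edgeR adjusted p = 0.179). It was called lower without DMSO library 3 (−0.40, adjusted p = 0.0151), with library sizes alone (−0.48, adjusted p = 0.00926) and with limma on FPKM (−0.92 to −1.15, adjusted p = 0.000976 to 0.00123).

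**Figure D4:**
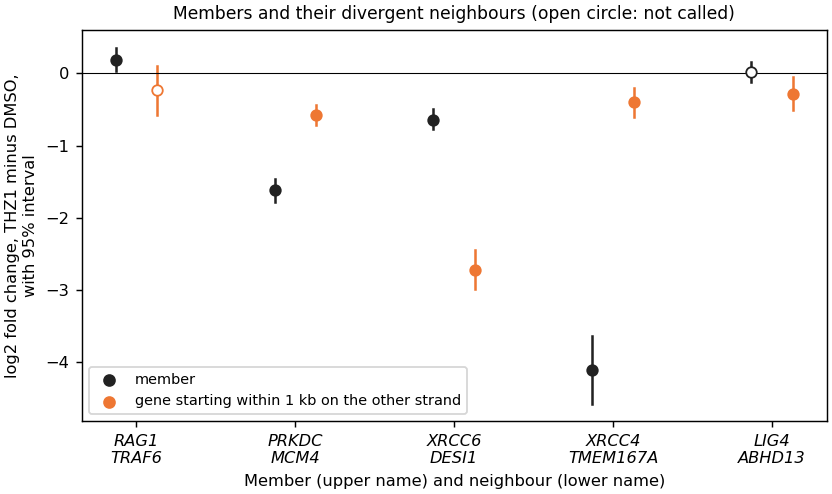
Log2 fold changes (THZ1 minus DMSO) of 5 members (black) and of genes starting within 1 kb on the other strand by gene records (orange). Bars are 95% intervals over 3 libraries per treatment, and open circles mark genes not called. DESI1 lies below XRCC6 (−2.72 and −0.64), whereas TMEM167A lies far above XRCC4 (−0.40 and −4.10).

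The members differ widely in the span of their canonical transcripts, and the span went with the fold change across the transcriptome. The canonical transcript covers 276 kb for XRCC4 and 187 kb for PRKDC, 11.8 kb for RAG1, and under 10 kb for RAG2 and LIG4, which like RAG1 have a single coding exon. Among protein-coding genes the median log2 fold change was 0.57 under 10 kb (2880 genes), −0.32 from 10 to 100 kb (7290 genes) and −0.66 at 100 kb and over (1759 genes), where 63.8% were called lower. Spearman's rho between this span and log2 fold change was −0.350 over 11929 genes and −0.479 over the 10 members. With the span of the gene record it was −0.343 and −0.333. With the length of the canonical transcript without introns it was −0.139 and 0.491. These values are descriptions, since all points share the same 6 libraries. XRCC4 (−4.10) and PRKDC (−1.62) were both below the median of their span class, NHEJ1 (3.71) and RAG1 (0.19) were above that of 10 to 100 kb with DNTT, XRCC5, XRCC6 and DCLRE1C below it, and RAG2 (−0.67) and LIG4 (0.02) were below that of the shortest class. The part of span in the members' changes was not tested.

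**Figure D5:**
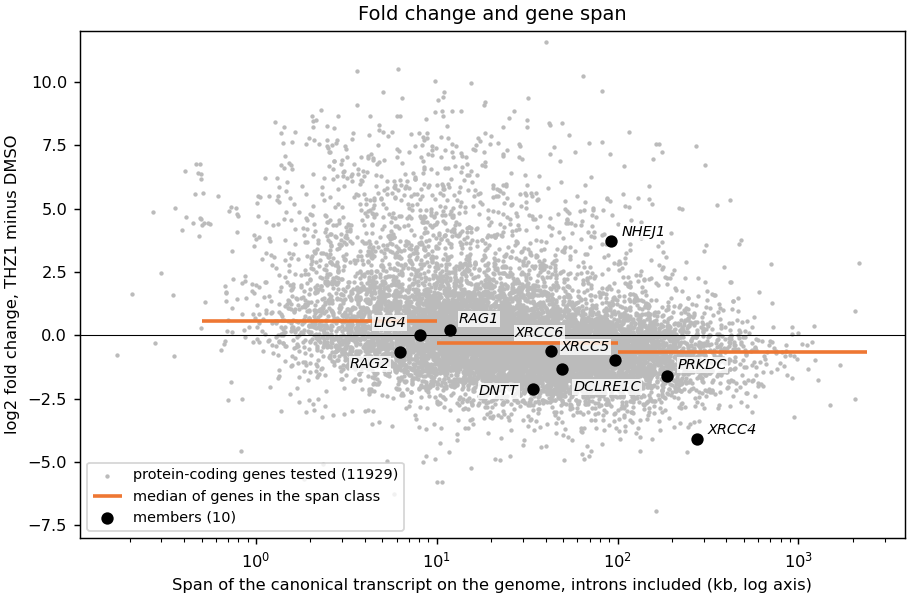
Log2 fold change (THZ1 minus DMSO) against the genomic span of the canonical transcript (kb, log axis) for 11929 protein-coding genes (grey), with the medians of 3 span classes (orange) and the 10 members (black). The class medians go from 0.57 to −0.66, and XRCC4 at 276 kb lies at −4.10.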

How the data were processed

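RNA was isolated with TRIzol and sequenced as cDNA libraries from NALM6 cells, 3 treated with DMSO and 3 with THZ1. The authors filtered the reads, mapped them to GRCh37 with STAR and deposited raw counts per gene from htseq-count. The gene annotation and the strand setting are not given in the sources used here. A second table deposited by the authors holds expression values made with RSEM for 16730 genes on a log2 scale, read here as log2(FPKM + 1) and taken back to FPKM. Within a treatment its sorted values differed between libraries by a median of 0.0015 to 0.0017, and between treatments by 0.0870 to 0.0902. Its columns of p-values, fold changes and FDR are the authors' own comparison and were not used.

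Genes were filtered with filterByExpr (minimum count 10, minimum total 15), scaled by TMM and tested with edgeR's quasi-likelihood model over all 16622 genes left, two-sided, with Benjamini-Hochberg adjustment, and called at an adjusted p below 0.05. Standard errors were derived from that fit, as the size of the log2 fold change over the square root of the F statistic. The 95% intervals were built from them with t quantiles, so both are approximations. Ratios of partners were compared by exact permutation over libraries. Symbols, coordinates and upstream windows come from GENCODE 44 on GRCh37. DESeq2, other factors and filters, a replicate block, leaving out libraries and limma on log2(FPKM + 1) or log2(FPKM + 0.1) were alternatives, and leaving out DMSO libraries 2 and 3 together was chosen after seeing the data. The design was written for linear FPKM, and the log2 table was handled as above. The fit was also run on simulated data in which few genes changed. Most genes were called in the real data, so that run does not bear on the results here.

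The members and lists were chosen with earlier results of these data known. Named were all members and neighbours, the extremes of each list, and any gene of the RAG cofactor, accessory and alternative end joining lists. The other genes named singly (MDC1, RNF168, SHLD3, TP53BP1, SATB1, IGHD, IFTAP, ENSG00000229418, SUV39H2, SLC23A3, NKG7 and the XRCC6 pseudogenes) were chosen after their values were seen. The B-lineage marker CD24 had no match in the annotation. Protein sequences and the windows of RAG1 and PRKDC were not used here, and some results are not reported here. The fits were run in R 4.3.3 (edgeR 4.0.16, DESeq2 1.42.0, limma 3.58.1). Tables and figures were made in Python 3.11.15 (scipy 1.17.1, matplotlib 3.10.9).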

Additional observations from a re-analysis of the deposited data

How the results depend on the processing

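Of 174 values of members under the alternatives, 146 kept their direction and their side of the threshold, 11 lost the call, 2 gained one and 15 turned sign. All changes were in RAG1, LIG4 and NHEJ1, whereas RAG2, DNTT, PRKDC, XRCC5, XRCC6, DCLRE1C and XRCC4 stayed lower wherever they were tested. Against TMM the median over all genes moved by 0.07 with RLE factors, 0.19 with upper quartile factors, −0.25 with library sizes alone, 0.13 where each library had to hold 10 counts or more, and −0.26 to −0.31 with limma on FPKM. RAG1 had −0.06 with library sizes alone, −0.01 with limma on FPKM (adjusted p = 0.964 to 0.965), 0.11 with no filter (edgeR adjusted p = 0.181) and 0.13 without DMSO libraries 2 and 3, where the lone DMSO library is assumed to vary like the THZ1 libraries, and leaving out 1 library gave 0.07 to 0.27. LIG4 had 0.21 with upper quartile factors, 0.15 with at least 10 counts in every library (edgeR adjusted p = 0.0398), −0.23 with library sizes alone, −0.07 with no filter and without DMSO libraries 2 and 3, and −0.14 with limma on FPKM (adjusted p = 0.0634 to 0.0638), and −0.02 to 0.03 with 1 library left out. NHEJ1 had 0.57 with limma at a pseudocount of 1 and 0.92 at 0.1 (adjusted p = 0.122 to 0.134). The causes were not tested. The log2 values of TDP2 (0.05) and PARP1 (0.10) turned positive with upper quartile factors, as did that of PARP1 (0.04) with at least 10 counts in every library.

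The count of lower members was 8 of 10 with library sizes alone, 6 of 8 where each library had to hold 10 counts or more and 6 of 9 with limma on FPKM, and 7 under the other scalings, filters and leave-outs. The 7 lower members became 4 at a fold of 1 and 3 at 1.5, where the 2 higher members became 1. Of all genes tested, 22.6% were lower at a fold of 1 and 12.9% at 1.5, where 24.6% were higher. The count of higher members was 3 with upper quartile factors. It was 1 with library sizes alone, with no filter and without DMSO libraries 2 and 3, 1 to 2 with 1 library left out, and 0 of 9 with limma on FPKM. At log2 fold changes of at least 1 and 1.5 in size, lower counts were 2 and 0 in accessory end joining and 3 and 1 in break signalling. They were 5 and 3 among the regulators and 1 and 1 among immunoglobulin genes, and alternative end joining had 0 at 1.5. Higher counts were 0 in accessory end joining at both sizes and with library sizes alone, and 1 in break signalling at 1.5. Among the regulators they were 0 at 1.5 and 2 with upper quartile factors. Among immunoglobulin genes they were 0 at both log2 sizes and with limma on FPKM. The 39 values of the partner ratios all kept their direction.

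The replicate block changed no member's call, with RAG1 at 0.20 (edgeR adjusted p = 0.00946). Deviations of libraries with the same number correlated at −0.004, 0.000969 and 0.0206, so the numbers were not taken to pair them. XRCC4 and NHEJ1 did not pass the filter of 10 counts per library, and DCLRE1C was not in the FPKM table. Depth limits NHEJ1 with DMSO and XRCC4 with THZ1, which rest on 9 counts in all and on 7, 7 and 8 counts.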
